A study of Rattus norvegicus with 4 samples.

Results

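The amyloid precursor gene App, its relatives Aplp1 and Aplp2, the adaptor gene Apba2 and 5 genes of the secretases that cut the precursor, Bace1, Psen2, Aph1a, Ncstn and Adam10, were examined in the hippocampus of aged rats after chronic unpredictable mild stress. All probe sets that the platform annotation assigned to exactly 1 gene symbol, one of these 9, were taken. There were 18 such probe sets among 31042 that are not Affymetrix controls. Stressed male Wistar rats went through 4 weeks of a changing series of mild stressors from an age of 15 months and gave 2 arrays. Nonstressed male Wistar controls of the same age, 16 months at dissection, were kept in standard housing and also gave 2 arrays. Each array carried total hippocampal RNA pooled from 3 rats. The sources do not say whether the 2 pools of a condition came from separate rats, so a p value here covers the spread between pools, which may be technical.

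The App protein is a membrane protein of neurons and other cells. When alpha-secretase, for which Adam10 is the main gene in neurons, cuts it within the amyloid beta stretch, no amyloid beta is formed. When beta-secretase, encoded by Bace1, cuts it first, the gamma-secretase complex then releases amyloid beta from the remaining stub. Gamma-secretase is built from a presenilin (such as Psen2), nicastrin (Ncstn), Aph1 (Aph1a or Aph1b) and the presenilin enhancer (Psenen). Aplp1 and Aplp2 are cut by secretases too, but hold no amyloid beta stretch. Apba2, also called Mint2 or X11-like, binds the cytoplasmic tail of App and slows its turnover. The question behind the comparison was whether transcripts of the precursor and of its processing enzymes differ after chronic stress, a condition linked to amyloid beta formation.

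The sequences before the annotated starts of 4 of these genes are shown here, because the signals of Apba2, Aph1a and Aplp1 fell in stressed rats while that of App did not pass the test. Each runs 5′ to 3′ over the 250 bases upstream of the start on the gene's strand, from RefSeq on the assembly GRCr8. All 9 genes had an entry. Capitals mark a GC box (GGGCGG on either strand), a motif read by Sp1-like factors. The windows are chr11:37722839-37723088 (minus strand), chr1:94834611-94834860 (minus strand), chr1:127514250-127514499 (plus strand) and chr2:186127126-186127375 (plus strand).
App: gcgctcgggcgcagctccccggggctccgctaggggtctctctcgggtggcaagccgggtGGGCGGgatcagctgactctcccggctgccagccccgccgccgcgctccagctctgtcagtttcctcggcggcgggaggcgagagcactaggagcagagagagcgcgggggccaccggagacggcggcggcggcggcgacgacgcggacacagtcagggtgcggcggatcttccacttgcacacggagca
Aplp1: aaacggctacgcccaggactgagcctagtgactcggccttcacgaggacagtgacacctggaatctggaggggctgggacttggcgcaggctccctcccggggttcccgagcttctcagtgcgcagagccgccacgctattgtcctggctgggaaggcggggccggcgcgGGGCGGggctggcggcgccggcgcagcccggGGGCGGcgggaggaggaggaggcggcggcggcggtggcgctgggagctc
Apba2: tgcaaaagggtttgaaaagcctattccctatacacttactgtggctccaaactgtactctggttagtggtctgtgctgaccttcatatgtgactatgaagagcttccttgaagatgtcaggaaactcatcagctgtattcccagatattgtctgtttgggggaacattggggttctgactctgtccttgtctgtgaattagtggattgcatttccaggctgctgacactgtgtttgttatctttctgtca
Aph1a: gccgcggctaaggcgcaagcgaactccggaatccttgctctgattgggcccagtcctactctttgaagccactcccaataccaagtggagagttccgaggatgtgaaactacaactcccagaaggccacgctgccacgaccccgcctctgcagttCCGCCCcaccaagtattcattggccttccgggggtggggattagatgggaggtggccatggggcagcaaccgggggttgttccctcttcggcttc

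The window of App held 1 GC box and was 73.6% G and C, and that of Aplp1 held 2 GC boxes at the same 73.6%. Aph1a had 1 GC box, on the opposite strand, and 60% G and C, while Apba2 had none and 43.6%. The median over 33469 promoters of the same length was 51.2% G and C, and 30.5% of them held a GC box. Of the 9 genes 5 had a GC box (App, Aplp1, Aplp2, Adam10 and Aph1a). None of the 9 windows held a TATA box (TATAAA, in 12.9% of all promoters), the cyclic AMP response element TGACGTCA (in 1.59%) or the half-site AGAACA of the glucocorticoid receptor (in 17.5%), each searched on both strands. The 3 genes that fell thus shared neither the GC box nor the base composition, as Apba2 stood apart in both. A match in these letters is not a binding site, and only this window was read.

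The values are Affymetrix signal intensities on a linear scale, which the authors had scaled to a common target on each array. The median signals were 80.2 to 82.3 on the stressed arrays and 79.6 to 80.9 on the control arrays. A probe set was tested when 2 or more of the 4 arrays showed a signal of 100 or above, which 14791 probe sets met. The stressed and the control arrays were compared by limma on log2 signals, with Benjamini-Hochberg adjustment over all tested probe sets. All 11 markers fixed for the hippocampal subfields passed the filter. The control transcripts differed between the groups too. The 24 probe sets of the poly-A spikes dap, lys, phe and thr, which are added to the RNA before labelling, averaged 8.21 on the log2 scale on both stressed arrays and 8.67 and 8.68 on the control arrays. All 24 were lower on the stressed arrays, by 0.47 on average. All 18 probe sets of the hybridization spikes bioB, bioC, bioD and cre were higher on the stressed arrays, by 0.31 on average, and no spike probe set overlapped between the groups. The log2 signal of the 3′ minus the 5′ probe set of beta-actin, which grows as RNA is shortened, was 2.97 and 2.94 on the stressed arrays and 2.74 and 2.63 on the control arrays, while that of GAPDH differed by -0.03 between the group means. The part of these technical differences in the results of App, its relatives and the secretases was not tested.

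Of the 18 probe sets 10 were tested, and they covered 7 of the 9 genes. Of these 10, 3 fell in stressed rats (Apba2, Aph1a and Aplp1), 1 rose (a dim probe set of Aplp2) and 6 did not pass adjusted p under 0.05, among them all 3 of App. Over all tested probe sets 11.8% fell and 12% rose at this threshold, together 23.8%. The median log2 fold change was -0.01 over the 10 probe sets and 0.02 over all tested ones. None of the 10 reached 2-fold, which with an unadjusted p under 0.05 was passed by 1.38% of all tested probe sets downward and 0.216% upward. An unadjusted p under 0.05 was reached by 5 of the 10, against 38.0% of all tested probe sets. In whole-tissue RNA, fewer cells of a type and less RNA per cell cannot be told apart.

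**Figure D1:**
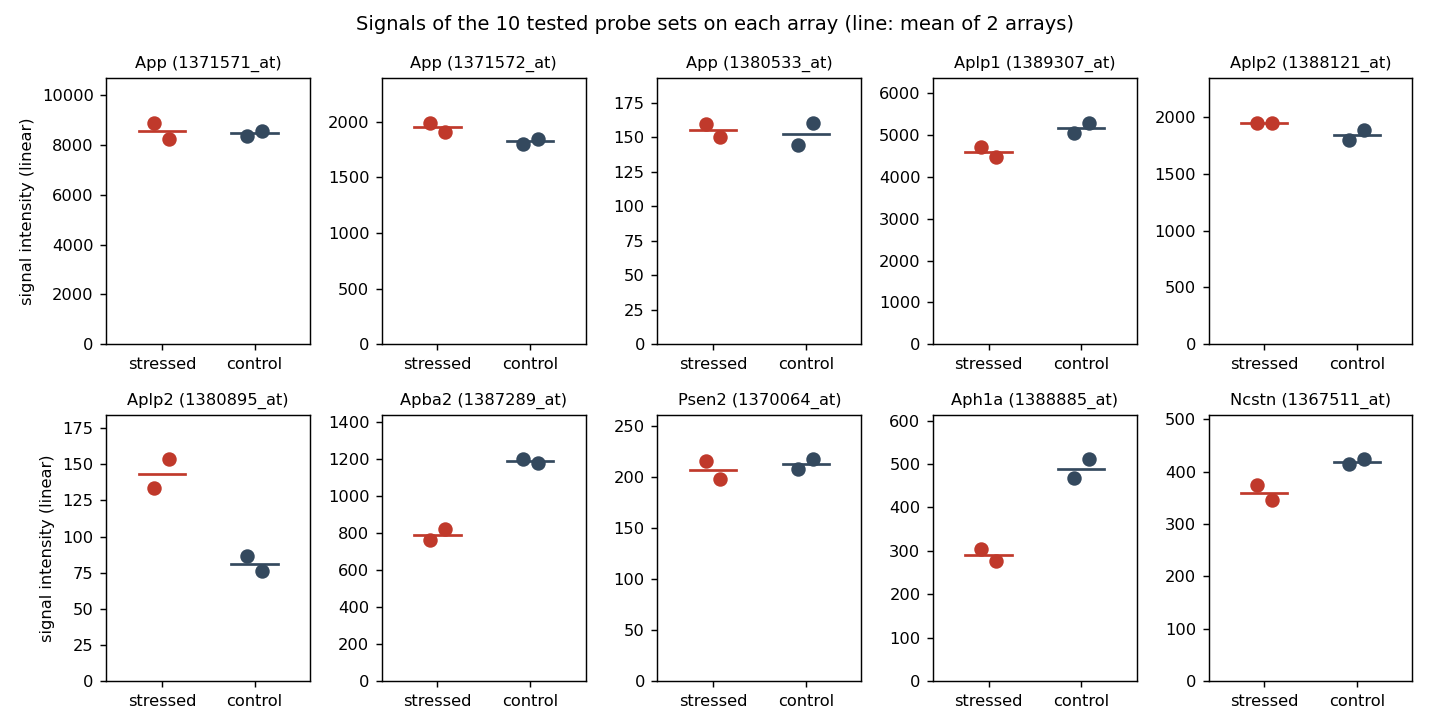
Signal intensity (linear scale, from 0) of the 10 tested probe sets on the 2 stressed arrays (left, red) and the 2 control arrays (right, blue), each point an array and each line the mean of 2. The stressed and control points of Apba2 and Aph1a lie far apart, those of App 1371571_at and 1380533_at overlap, and Aplp2 1380895_at is the only one with stressed signals (133.3 and 153.4) well above those of controls (86.4 and 76.0).

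App was measured by 3 probe sets, and none passed the test. Probe set 1371571_at had signals of 8901.4 and 8255.7 in stressed rats and 8356.4 and 8584.3 in nonstressed controls, so that the groups overlapped. Its log2 fold change was 0.02 (standard error, SE, 0.05, limma adjusted p = 0.834). The 95% interval of this difference ran from -6.86% to 9.98% in stressed rats relative to controls, the range of change in the App signal that these 4 arrays leave for this probe set. Probe set 1371572_at read 1989.2 and 1907.0 in stressed rats and 1800.6 and 1842.6 in controls. The groups did not overlap here, but the log2 fold change of 0.10 (SE 0.05, limma adjusted p = 0.175) did not pass. Non-overlap was common, at 64.4% of all tested probe sets. Probe set 1380533_at read 159.9 and 150.1 in stressed rats and 144.4 and 160.6 in controls, again with overlap (log2 fold change 0.02, SE 0.13, limma adjusted p = 0.904).

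The 3 App probe sets differed little among themselves in the change between groups. The log2 signal of 1371571_at minus that of 1371572_at was 2.14 on average in stressed rats and 2.22 in controls. The difference of -0.08 had a p of 0.333 in a two-sided exact permutation test. This is the smallest p that 2 arrays against 2 can give, so the test cannot decide whether these probe sets differ. Both stressed values of this gap (2.16 and 2.11) lay below those of controls (2.21 and 2.22). Against 1380533_at the changes of the other two were -0.01 (exact permutation p = 1) and 0.07 (exact permutation p = 0.667). Among 11624 tested probe sets assigned to 1 other gene, those whose 4 centred log2 signals lay nearest to App 1371571_at belonged to Mkks, a chaperonin-like gene, Cd99l2, a membrane protein gene, and Rbm39, a splicing factor gene. Their Euclidean distances were 0.0046, 0.011 and 0.013 on the log2 scale. With 4 arrays this is a description only.

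Of the relatives of App, Aplp1 was slightly lower in stressed rats. Aplp1 encodes a member of the family expressed mainly in neurons, where it takes part in adhesion at synapses. Its only probe set, 1389307_at, had signals of 4720.9 and 4480.2 in stressed rats and 5059.1 and 5294.9 in nonstressed controls. Both stressed signals lay below both control signals, a fall by 0.17 on the log2 scale (SE 0.05, limma adjusted p = 0.0398) or 11.1%, with a 95% interval of -17.8% to -3.92%. This was close to the threshold, and the call was lost without the intensity trend in limma (adjusted p = 0.153), with no filter on dim probe sets (adjusted p = 0.0868) and in each removal of an array, with adjusted p of 0.0638 and 0.208 without stressed replicates 1 and 2 and of 0.085 and 0.204 without control replicates 1 and 2.

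Aplp2, the most widely expressed relative of App, gave different values at its 2 tested probe sets. Probe set 1388121_at had signals of 1949.8 and 1945.6 in stressed rats and 1800.0 and 1884.9 in controls, a log2 fold change of 0.08 (SE 0.05, limma adjusted p = 0.248) that did not pass. Probe set 1380895_at had signals of 133.3 and 153.4 in stressed rats and 86.4 and 76.0 in controls. This was a rise by 0.82 on the log2 scale (SE 0.16, limma adjusted p = 0.00916), or 1.76-fold. It passed the filter only through the stressed arrays, since both control signals lay under 100, and a probe set that enters in this way had to differ. Without control replicate 2 the adjusted p was 0.0655.

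The gap between the Aplp2 probe sets, the log2 signal of 1388121_at minus that of 1380895_at, was 3.87 and 3.66 on the stressed arrays and 4.38 and 4.63 on the control arrays. Since the dimmer one entered through its stressed signals, this gap is a description only, and no p is given for it. The other 3 probe sets of Aplp2 (1379718_at, 1381788_at and 1383096_at) had signals between 1.3 and 35.1 on all arrays and were not tested.

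The adaptor gene Apba2 had the lowest p of the 10 probe sets. Probe set 1387289_at had signals of 758.2 and 822.3 in stressed rats, against 1195.6 and 1177.5 in nonstressed controls. The means were 790.25 ± 45.3 in stressed rats and 1186.55 ± 12.8 in controls (SD, n = 2 arrays each). This was a fall by 0.59 on the log2 scale (SE 0.06, limma adjusted p = 5.66e-04), or 33.5%, with a 95% interval of -39.4% to -26.9%. The gap between the groups was several times the spread within either. The second probe set of the gene, 1375616_at, had signals of 1.4 to 4.3 on all 4 arrays and was not tested, so that the fall of Apba2 rests on a single probe set.

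Aph1a, which encodes the scaffold subunit of gamma-secretase, had the largest fall of the 10. Its only probe set, 1388885_at, had signals of 303.1 and 275.7 in stressed rats, against 467.3 and 510.8 in nonstressed controls. The means were 289.4 ± 19.4 in stressed rats and 489.05 ± 30.8 in controls (SD, n = 2 arrays each). The log2 fold change was -0.76 (SE 0.09, limma adjusted p = 0.00119), a fall by 40.8% with a 95% interval of -48.7% to -31.8%. Neither Apba2 nor Aph1a overlapped between the groups, and both calls were kept in each removal of an array.

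The other measured subunits of gamma-secretase did not pass the test. Ncstn, which encodes nicastrin, the subunit that admits substrates, had signals of 374.2 and 345.1 in stressed rats and 415.0 and 423.4 in nonstressed controls at probe set 1367511_at. Both stressed signals were the lower ones, with a log2 fold change of -0.22 (SE 0.08, limma adjusted p = 0.0799, unadjusted p = 0.024). The second Ncstn probe set, 1396543_at, read 84.9 and 53.9 in stressed rats and 44.0 and 49.1 in controls, under the filter, and its stressed signals were the higher ones. Psen2, which encodes a presenilin, the catalytic subunit, read 215.5 and 197.8 in stressed rats and 207.5 and 216.8 in controls. These groups overlapped (log2 fold change -0.04, SE 0.11, limma adjusted p = 0.821), and the 95% interval ran from -18.1% to 15.7%.

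**Figure D2:**
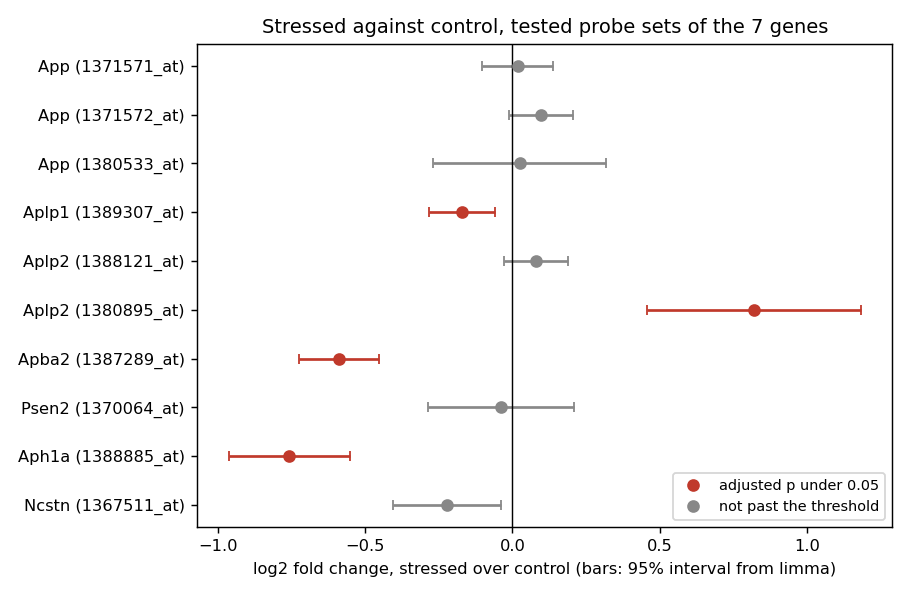
Log2 fold change of stressed rats over nonstressed controls (horizontal axis) for each of the 10 tested probe sets, with 95% intervals from limma, in red where adjusted p was under 0.05. Aph1a (-0.76), Apba2 (-0.59) and Aplp1 (-0.17) lie to the left of 0, Aplp2 1380895_at (0.82) to the right, and the intervals of all 3 App probe sets include 0.

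The genes of the alpha- and beta-secretase had no tested probe set. Bace1 was measured by probe set 1369256_at alone, at signals of 28.6 and 20.7 in stressed rats and 12.5 and 12.3 in nonstressed controls. The stressed signals were the higher ones, but all 4 lay far under the minimum of 100, so no fold change is given. Adam10 had 2 probe sets. Probe set 1388161_at read 62.3 and 71.7 in stressed rats and 65.3 and 75.5 in controls, with overlap, and probe set 1370955_at read 5.9 and 17.2 in stressed rats and 20.7 and 30.0 in controls. At these signals a difference in Bace1 or Adam10 was not detectable, which does not show that there was none.

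**Figure D3:**
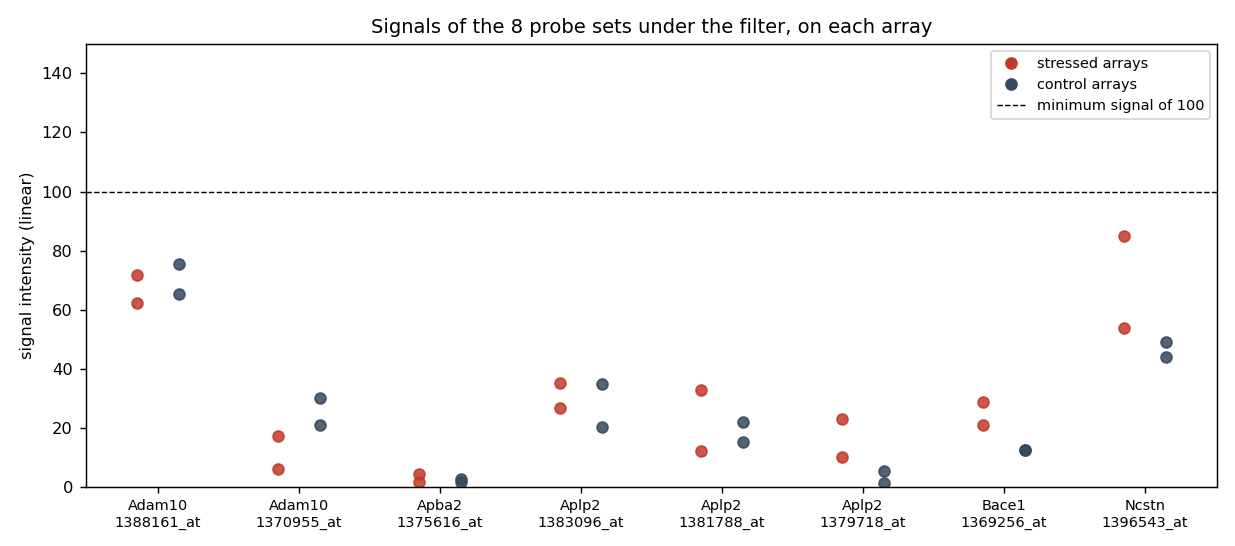
Signal intensity (linear scale) of the 8 probe sets under the filter, with the 2 stressed arrays in red and the 2 control arrays in blue, and the minimum signal of 100 as a dashed line. All points lie under the line, between 1.3 and 84.9, including the only probe set of Bace1 and both of Adam10.

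Outside the 9 genes, 4 further genes of secretases, their relatives and modulators were tested and 1 of them rose. At the brightest probe set of all 9264 genes, 11.1% rose and 10.2% fell. Psenen, the remaining subunit of gamma-secretase, had signals of 1755.1 and 1890.1 in stressed rats and 1977.1 and 1899.7 in nonstressed controls and did not pass (log2 fold change -0.09, limma adjusted p = 0.261). Adam17, a second alpha-secretase gene, read 300.5 and 296.8 in stressed rats and 302.5 and 287.2 in controls (log2 fold change 0.02, limma adjusted p = 0.893). Tmed10, a modulator of gamma-secretase, had a log2 fold change of -0.07 and did not pass. Adam19, a related metalloprotease gene, rose by 0.48 on the log2 scale (limma adjusted p = 0.0237). Bace2, a relative of Bace1, had signals of 35.6 to 84.5 in stressed rats and 37.2 to 100.4 in controls at its 2 probe sets and was not tested. Among the tested subunits of gamma-secretase, Aph1a was thus the only one past the threshold, while Ncstn, Psen2 and Psenen had log2 fold changes of -0.22, -0.04 and -0.09. Whether the change of Aph1a differed from theirs was not tested.

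Genes of App sorting moved in both directions, and several of them differed between their own probe sets. Of 26 tested genes of adaptors, partners and sorting, each at its brightest probe set, 6 rose and 2 fell, with a median log2 fold change of 0.07. Over the brightest probe sets of all 9264 genes, 11.1% rose and 10.2% fell. Sorl1, a sorting receptor that steers App away from the compartments of amyloid beta formation, had signals of 4250.6 and 4238.0 in stressed rats and 3413.3 and 3430.0 in nonstressed controls. This was a rise by 0.31 on the log2 scale (SE 0.04, limma adjusted p = 0.0021), and 5 of its 6 tested probe sets rose. Sort1, which encodes the related receptor sortilin, rose by 0.31 at its brighter probe set and Rtn3, a reticulon that binds Bace1, by 0.26. The second tested probe sets of Sort1 and Rtn3 did not pass. The largest changes of the list were falls at dimmer probe sets, named here after their values were seen. Appbp2, which binds the tail of App, had signals of 147.0 and 161.2 in stressed rats and 530.8 and 546.1 in nonstressed controls at probe set 1383091_at (log2 fold change -1.81, limma adjusted p = 3.16e-05), while its brightest probe set, at 0.07, did not pass. Rtn4, the reticulon known as Nogo, fell by 1.09 at probe set 1388027_a_at (limma adjusted p = 3.81e-05), while its brightest, at -0.06, did not pass. Snx27, a sorting nexin of endosomes, rose by 0.24 at its brightest probe set and fell by 0.91 and 1.18 at probe sets 1379804_at and 1377526_at (limma adjusted p = 6.54e-05 and 0.00189). Over all 49 tested probe sets of the list 11 rose and 6 fell. Rab11a, a GTPase of recycling endosomes, fell by 0.27 on the log2 scale (limma adjusted p = 0.0066), and its second probe set did not pass. Of the other adaptors that bind the App tail, Apba1 and Apbb1 had log2 fold changes of -0.0026 and -0.02 and did not pass. In the same list Apbb2 rose by 0.60 at its brightest probe set (limma adjusted p = 0.0257), and its other tested probe sets did not pass. Mapk8ip1 fell by 0.23 (limma adjusted p = 0.0217), and its second probe set did not pass. All of these adaptors were chosen after their values were seen. Without the intensity trend 3 genes of the list rose and none fell, and with the tested probe sets averaged per gene 3 rose and 5 fell.

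Genes of amyloid beta degradation and clearance included 6 of 16 tested genes that rose and none that fell, with a median log2 fold change of 0.19. Among the brightest probe sets of all 9264 genes 11.1% rose and 10.2% fell. Lrp1, an endocytic receptor that takes up amyloid beta and apolipoprotein E, had signals of 1270.6 and 1327.8 in stressed rats and 819.3 and 872.7 in nonstressed controls. This was a rise by 0.62 on the log2 scale (SE 0.06, limma adjusted p = 3.59e-04). Abca1, which loads lipid onto apolipoprotein E, rose by 0.70 (limma adjusted p = 0.00136), although its second tested probe set, at 0.12, did not pass. Lrp8, a receptor for reelin and apolipoprotein E, rose by 0.42 (limma adjusted p = 0.00469). Vldlr, a receptor of the same family, rose by 0.33 at its brightest probe set and fell by 0.37 at another (limma adjusted p = 0.0112 and 0.0114). The insulin-degrading enzyme gene Ide, named after its values were seen, had a log2 fold change of 0.21 and did not pass (limma adjusted p = 0.0909). Of all 21 tested probe sets of the list 7 rose and 1 fell. Without the intensity trend 4 genes of the list rose, and 5 with the tested probe sets averaged per gene.

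Other proteins cut by the same secretases were tested through 11 genes, of which 7 rose and 1 fell (median log2 fold change 0.18). The shares over all 9264 genes were 11.1% and 10.2%. Cntn2, one of the 7, passed the filter only through the stressed arrays (signals of 120.9 and 143.6 in stressed rats and 92.9 and 88.5 in controls) and so had to differ. L1cam, a neuronal adhesion molecule, had signals of 918.9 and 992.5 in stressed rats and 628.6 and 640.8 in nonstressed controls, a rise by 0.59 on the log2 scale (SE 0.06, limma adjusted p = 6.87e-04). Notch1, the receptor that gamma-secretase activates, rose by 0.50 at its brighter probe set (limma adjusted p = 0.0109), and the second, at 0.10, did not pass. Sez6l2, a substrate of Bace1 in neurons, rose by 0.24. Chl1, a relative of L1cam that Bace1 cuts, fell by 0.30 (limma adjusted p = 0.00323), with signals of 1550.8 and 1565.2 in stressed rats and 1930.7 and 1910.1 in controls. Only 3 genes of this list rose without the intensity trend, and 3 with the replicate number as a block.

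**Figure D4:**
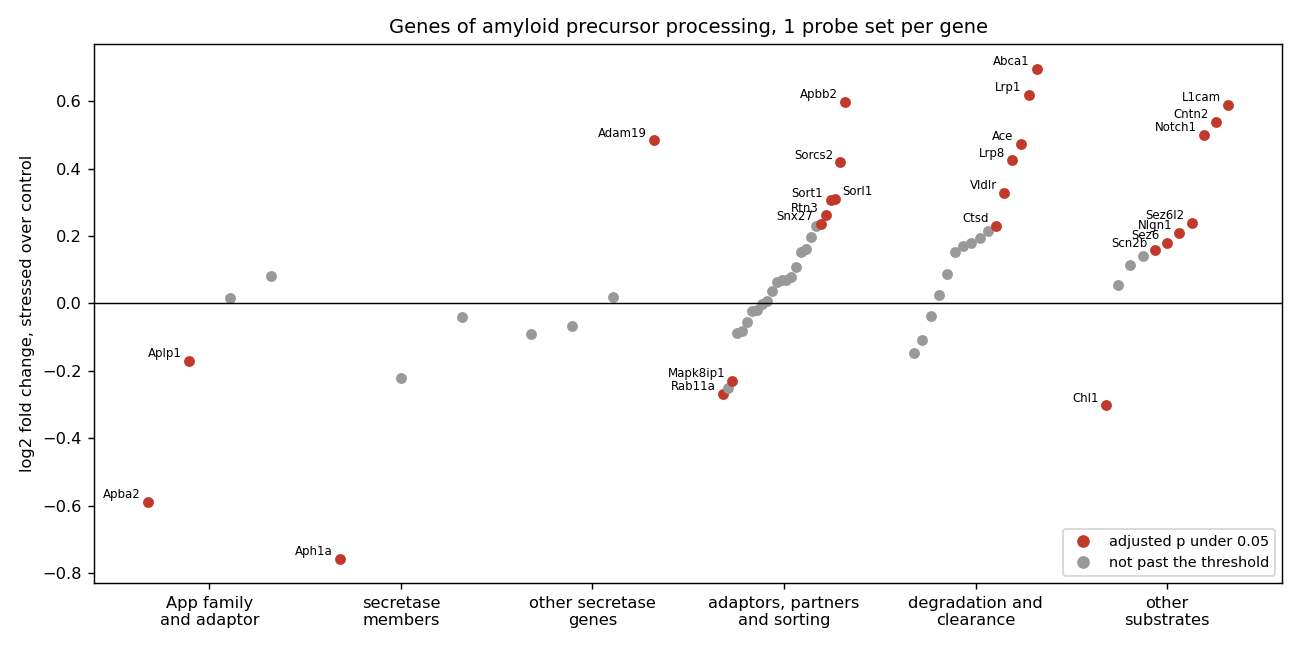
Log2 fold change of stressed rats over nonstressed controls (vertical axis) at the brightest tested probe set of each gene, in the 6 gene lists of amyloid precursor processing, ordered by value within a list and in red where adjusted p was under 0.05. Apba2 and Aph1a are the lowest points, at -0.59 and -0.76. Red points above 0 number 6 of 16 in the list of degradation and clearance and 7 of 11 in that of other substrates. Of these 7, Cntn2 passed the filter only through the stressed arrays. Over all 9264 genes 11.1% rose and 10.2% fell.

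Markers of other cell types were counted in the same way, at the brightest tested probe set of each gene. Over all 9264 genes 11.1% rose and 10.2% fell at adjusted p under 0.05. Of 11 tested markers of the choroid plexus, the tissue that makes cerebrospinal fluid, 8 rose and none fell. Summed over all 14 markers on the array, signals were 21167.9 and 19784.7 in stressed rats and 15190.5 and 16939.9 in nonstressed controls. Most of these sums came from Ttr, which did not pass (12992.4 and 11938.5 against 9449.9 and 11337.7, limma adjusted p = 0.0579). Of these 8 rises, 3 (Cldn2, Aqp1 and Kcne2) passed the filter only through the stressed arrays, which leaves 5. Of 8 tested markers of the meninges 1 rose and 6 fell, and 2 of these falls (Col1a1 and Col3a1) passed only through the control arrays. The sums over all 9 markers on the array were 8252.3 and 8612.3 in stressed rats and 10946.8 and 11166.8 in controls. Most of these sums came from Ptgds, 1 of the 6 that fell (5873.7 and 6192.9 against 8028.8 and 8345.4). Endothelial and mural markers rose in 4 of 10 cases, with Pdgfrb passing only through the stressed arrays, and fell in none. Of 10 markers of neurons 4 rose and 1 fell, and of 10 markers of oligodendrocytes 1 rose and 3 fell. Of 9 markers of interneurons none rose and 4 fell (Gad2, Slc32a1, Npy and Cck), with sums of 11597.4 and 11167.6 in stressed rats and 12555.8 and 12876.5 in controls. Of 7 microglial markers 1 rose and 2 fell, and of 11 markers of the hippocampal subfields 2 rose, 1 of them (Dsp) passing only through the stressed arrays, and 2 fell. Of 8 astrocyte markers 1 rose, with sums of 47999.6 and 46793.3 in stressed rats and 41451.7 and 42834.1 in controls. Of all 12 tested probe sets of these astrocyte genes 1 rose and 2 fell. None of 5 tested markers of the thalamus passed at the brightest probe set, and of their 6 tested probe sets 1 rose. The 1 tested marker of blood cells did not pass. No marker of these lists was at a signal of 0 on any array. The part of these shifts in the values of App, its relatives and the secretases was not tested.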

How the data were processed

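Total hippocampal RNA of stressed and nonstressed aged rats was hybridized by the authors to Affymetrix rat genome arrays, 2 per group. The deposited signal intensities are linear values that the authors made with GCOS and scaled to a target value. No detection calls or probe sequences were used here. Signals of 0 were set to 0.1 before log2, and no further normalization was applied. Affymetrix controls (57) did not enter any test. Of 31042 other probe sets, the 14791 that reached a signal of 100 on 2 or more arrays were fitted with limma 3.58.1 in R 4.3.3 (intensity trend, no replicate block). The platform annotation gave 1 gene symbol to 20826 probe sets, several to 436 and none to 9780. Of those with 1 symbol, 20758 were matched to RefSeq by gene identifier and took its name (GRCr8, names only).

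The genes, the gene lists and the tests were chosen with earlier results of these data known. Of each wider list, the up to 4 genes with the smallest p past adjusted p under 0.05 were named, with Psenen, Adam17 and Bace2, and the 3 probe sets nearest to App. One further gene of this rule is not reported here. Lists are described by counts and medians at the brightest tested probe set per gene. The test was checked on simulated data. Alternatives were quantile normalization, median centring, other filters, an offset or floor of 50, no intensity trend, the methods' t-test, the replicate number as a block, 1.5-fold in place of 2-fold, averaged probe sets per gene and each array left out. The number of arrays limits the precision, besides the limits given beside the results. Protein sequences were not used here. Plots were drawn with matplotlib 3.10.9, and tables made with pandas 2.3.3 and numpy 2.4.6 (python 3.11.15).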

Additional observations from a re-analysis of the deposited data

How the results depend on the processing

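The falls of Apba2 and Aph1a kept their direction and stayed past adjusted p under 0.05 in 14 of 16 alternatives each, with log2 fold changes of -0.65 to -0.53 and -0.83 to -0.67. The exceptions were the methods' t-test on log2 and on linear signals (adjusted p = 0.128 and 0.114 for Apba2, 0.139 and 0.141 for Aph1a). The fall of Aplp1 passed in 7 of 16. The rise of Aplp2 1380895_at passed in 12 of 15, but that probe set had entered through its stressed signals, so its count is no sign of stability. All these counts include the crossed pairing, which was added after seeing the data. It gave Aplp1 its lowest limma adjusted p (0.00629). With the methods' t-test, which takes the spread from 4 arrays alone, 0 of the 10 probe sets rose and 0 fell on either scale, against 1 and 3 by limma. At unadjusted p under 0.05 on log2 signals it called 3 of the 10, those of Apba2, Aph1a and Aplp2 1380895_at. Of all 14791 tested probe sets it called 3642 at this threshold. At adjusted p under 0.05 it called 4 of all tested probe sets higher and 14 lower on log2 signals. On linear signals these were 4 and 12, against 1771 and 1744 by limma. With a signal of at least 200 on 2 arrays the dim Aplp2 probe set was not tested, which left 0 rises. Without the intensity trend 1000 probe sets rose and 1147 fell. With an array left out, the 10 probe sets gave 0 to 1 rises, and all tested ones 650 to 1148 rises and 791 to 1342 falls, both lowest without control replicate 2. At 1.5-fold in place of 2-fold with unadjusted p under 0.05, 1 of the 10 was higher and 2 lower, and 250 and 613 of all tested probe sets.

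The replicate numbers were not shown to pair the arrays, since only 2 pairs exist and their deviations correlated at -0.11. With the replicate block 1 of the 10 probe sets rose and 2 fell, as the fall of Aplp1 was lost (adjusted p = 0.122), and 1281 and 1391 of all tested probe sets rose and fell. With the crossed pairing, added after seeing the data, these counts were 1 and 3, and 2069 and 1970. With the mean of all tested probe sets of a gene, 1 of the 4 genes App, Aplp1, Aplp2 and Apba2 rose, against 0 at the brightest. The mean of Aplp2 takes in its dim probe set, which passed the filter only through the stressed arrays and so had to differ. The rise in this count is therefore a description only.

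The sign turned only for values near 0. App 1371571_at had a log2 fold change of -0.0081 after quantile normalization and -0.037 to 0.072 with an array left out, App 1380533_at -0.052 to 0.101, and Psen2 -0.101 to 0.023. The cause was not tested.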
